A study of Mus musculus with 61 samples.

Results

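The genes of ribosome biogenesis and the nucleolus were followed through 72 h of culture of mouse CD4 T cells with and without IL-27. Members were chosen by gene symbol on the array platform: names that start with Polr1, names that start with Nop, Nol, Utp or Rrp followed by a digit, and Ncl, Npm1, Fbl, Bop1, Pes1, Dkc1, Gar1, Nhp2, Wdr12, Ftsj3 and Nolc1. Of 12291 genes that had a probe set of their own, 43 met this rule, and 42 of them lay above the array median on at least 5 arrays and were tested among 7146 genes. The member below that level was Nol3, at a mean intensity of 9.54, an apoptosis repressor that shares only its name with the nucleolar proteins. Dkc1 had no probe set assigned to it alone and was not analysed here. Each gene was read from the brightest of its probe sets.

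The cells were C57BL/6 CD4 T cells, described as naïve before culture, and all samples carry the same protocol text: anti-CD3 at 1 µg/ml, a second antibody written as anti-CD8 at 1 µg/ml, and IL-27 at 25 ng/ml. That text and the description as in vitro Tr1 cells, a regulatory type of T cell that makes IL-10, are attached to the arrays titled ctrl as well as to those titled IL27, so what the control cultures lacked rests on the titles alone. IL-27 is a cytokine of the IL-12 family that acts on T cells. The time labels carry no unit and are read here as hours. HT_MG-430A arrays covered 18 times from 0.5 to 72 h, with 26 IL-27 and 25 control arrays used, and 8 of the times had 2 arrays in each arm. Mouse430A_2 arrays added a resting control at 0 h and both arms at 4, 16 and 48 h, with 1 array each. The labels do not say whether same-time arrays hold RNA of different cultures or mice. The p-values therefore reflect only how much these arrays vary, and that variation may be technical.

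Ribosomes are assembled in the nucleolus. RNA polymerase I copies the ribosomal RNA genes into a long precursor, which small nucleolar ribonucleoproteins (snoRNPs) modify at chosen bases and which the small-subunit processome and the large-subunit assembly factors fold, cut and trim. A resting T cell has a small nucleolus and little protein synthesis. On activation through its antigen receptor it enlarges before it divides, and MYC, a transcription factor induced early in activation, is known to drive many genes of this group.

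Median intensity per array was 27.97 to 36.62 on HT_MG-430A and 70.66 to 78.9 on Mouse430A_2, so levels are compared only within an array type. The 12 h control array stood apart. Its highest correlation with any other array was 0.871 over 7146 genes, against at least 0.976 for each of the other 51, and Ncl read 250.4 on it; it was left out. Cd4, Cd3d, Cd3e, Cd3g and Thy1 were above the array median on 51 of 51 arrays. Cd8a, Ncr1, Itgam, Pax5 and Hba-a1, markers of CD8 T, NK, myeloid, B and erythroid cells, were above it on 0, whereas Ighm, Cst3 and Cd8b1 were above it on 51. Other genes of these lists were above it on some arrays. Among them were the erythroid gene Car2 on 23, the NK genes Klrd1 on 13 and Klrk1 on 4, and the B cell genes Cd79b on 7 and Ms4a1 on 6. The myeloid genes Cd68 (13), Lyz2 and Mpeg1 (11 each) and Fcer1g (9) were too. Arrays measure RNA relative to the rest of each sample, so fewer cells of a type and less RNA per cell cannot be told apart.

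The letters CACGTG, an E-box that MYC and related factors are known to bind, were searched in the promoter window from 250 bases before to 50 after each start site (RefSeq, GRCm38.p6; the sequence is its own reverse complement, so both strands are covered). A window was present for 34 of the 43 members, and 8 of them held the letters (23.5%), against 12.9% of 5892 tested genes with a window and 7.15% of all 32851 promoter windows. A match is a description of the letters, not a site of binding. In Pes1, Utp20 and Utp4 the match lay after the start site. The other 5 are shown because they hold an E-box before the start site, within promoters of genes whose RNA is followed below. Utp25 also held matches after the start site, which are not printed. The 5 stretches are printed 5′ to 3′ up to at most the last base before the start site, with the E-box in capitals. The first base of the printed E-box lay 43 bases before the start in Nol11, 60 in Nop2, 208 in Rrp7a, 20 in Utp18 and 245 in Utp25.
Nol11 (chr11:107189382-107189464, - strand): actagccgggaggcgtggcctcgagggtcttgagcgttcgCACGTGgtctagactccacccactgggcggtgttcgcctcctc
Nop2 (chr6:125131783-125131868, + strand): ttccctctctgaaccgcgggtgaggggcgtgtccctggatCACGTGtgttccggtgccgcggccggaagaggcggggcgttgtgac
Rrp7a (chr15:83122964-83123049, - strand): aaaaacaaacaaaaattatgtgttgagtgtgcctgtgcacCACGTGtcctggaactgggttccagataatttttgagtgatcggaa
Utp18 (chr11:93885767-93885826, - strand): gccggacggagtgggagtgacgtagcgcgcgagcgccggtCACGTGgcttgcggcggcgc
Utp25 (chr1:193130183-193130233, - strand): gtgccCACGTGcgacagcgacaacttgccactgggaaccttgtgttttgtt
Nop2 methylates the large-subunit rRNA, Nol11, Rrp7a, Utp18 and Utp25 act on the small-subunit precursor, and their control differences from 0.5-2 h to 4-8 h were 1.85, 1.08, 0.69, 0.91 and 0.45 on the log2(intensity + 32) scale, the last (Utp25) not called. Nol3, Nop53, Rrp12, Bop1, Nol6, Utp11, Npm1, Fbl and Utp6 had no window.

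The members covered a wide range of intensity. Npm1, a histone and ribosome chaperone of the nucleolus, was brightest at a mean of 7083 over 51 arrays, followed by Ncl (nucleolin, which binds nascent pre-rRNA) at 5330 and Nop10, a small subunit of the H/ACA snoRNPs, at 4185. The dimmest tested members were Rrp36 at 301, Polr1b at 257.03 and Nol6 at 123. Intensities of different probe sets depend on their probes, so this order says nothing about the amounts of the transcripts. The 42 tested members were above the array median on 51 of 51 arrays each, so none entered through one group of arrays alone.

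The main event in both arms was a rise between 0.5-2 h and 4-8 h, a plateau to about 20 h and a decline afterwards. In the control arm, 39 of 42 members rose from 0.5-2 h (4 arrays) to 4-8 h (3 arrays), 1 fell and 2 did not pass the test, with a median difference of 1.06 on the log2(intensity + 32) scale. Over all 7146 genes, 57.5% were called in this contrast and 29% were called higher, with a median difference of -0.00. Calls are limma's test with Benjamini-Hochberg adjustment over all tested genes at 0.05. In the IL-27 arm the counts were 39 higher and 1 lower against 58.3% of genes called and 32% called higher, with a median of 1.12. For 36 of 42 members every control array of 4-8 h was above every array of 0.5-2 h, which held for 21.7% of all genes; in the IL-27 arm the count was 38, against 27.4%.

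**Figure D1:**
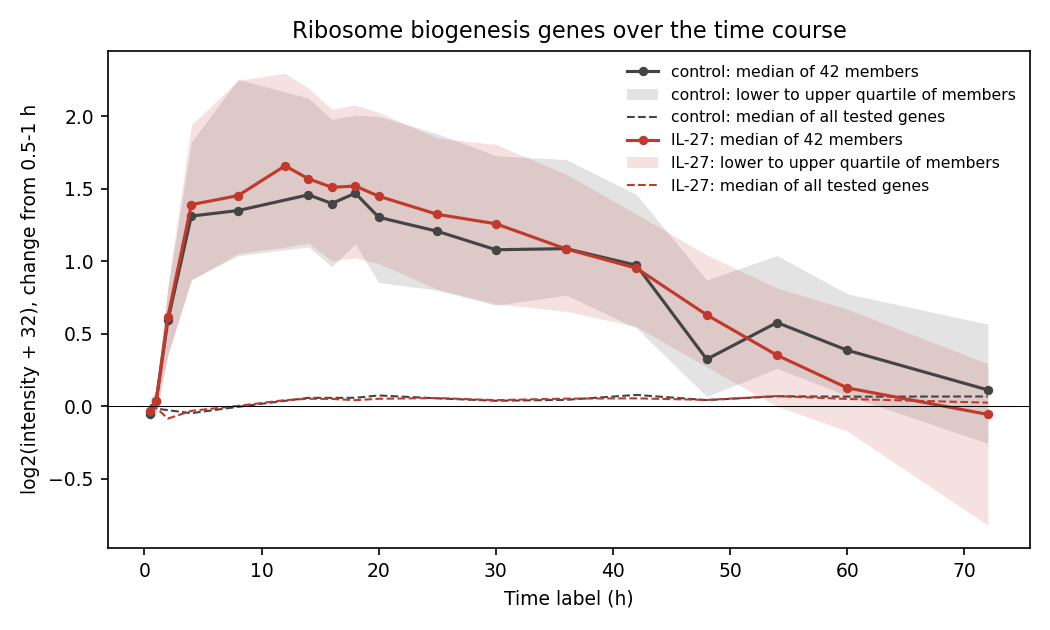
Median change in log2(intensity + 32) from the mean of the 0.5 and 1 h arrays of both arms (y axis) against the time label in hours (x axis), for the 42 members in control (grey) and IL-27 (red) cultures, with the range between the lower and upper quartile of the members shaded and the median of all 7146 tested genes dashed. The control median is 1.31 at 4 h, 1.47 at 18 h and 0.11 at 72 h, while the median of all genes stays between -0.08 and 0.08.

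Among the 5 RNA polymerase I subunits measured, 4 rose. Polr1b, the second-largest subunit, read 67.9, 59.5, 149 and 63.2 on the 0.5 h, 1 h and both 2 h control arrays. It read 435, 492 and 450 on the 4 h and both 8 h arrays, all above the early ones (difference 2.13, SE 0.30, adjusted p 8.6e-08). Polr1e, a subunit that helps the enzyme start, went from 155, 130, 331 and 234 to 532, 868 and 486 (1.46, SE 0.26, adjusted p 5.8e-06). Polr1a, the catalytic subunit, went from 227, 222, 308 and 333 to 489, 592 and 623 (0.99, SE 0.27, adjusted p 0.0016), and the groups did not overlap. Polr1c, shared with RNA polymerase III, differed by 0.92 (SE 0.18). Polr1d, the other subunit shared with polymerase III, read 3229, 3581, 3770 and 3437 early and 3228, 4328 and 3859 later, so the groups overlapped (0.11, SE 0.10, adjusted p 0.36). The 2 probe sets of Polr1d disagreed: the dimmer one, with a mean of 1531, differed by 1.12 in the same contrast.

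The nucleolar chaperones and the snoRNP proteins rose without exception in both arms. Ncl went from 2792, 2825, 3913 and 3362 to 6245, 6301 and 5482 (0.90, SE 0.14, adjusted p 5.7e-07). Npm1 went from 3820, 3899, 4705 and 4358 to 5956, 8253 and 6399 (0.70, SE 0.10). Every later array was above every early one for both genes. Nolc1, a chaperone of both snoRNP classes, read 598, 685, 2173 and 1047 early and 3253, 2910 and 2367 later (1.49, SE 0.43, adjusted p 0.0032). Fbl (fibrillarin, the methyltransferase of the C/D class) differed by 0.98 (SE 0.19), and Nop56 and Nop58, its scaffold partners, by 0.81 and 1.05. All 3 H/ACA proteins were called higher. Nop10 differed by 0.87 (SE 0.16). Nhp2 went from 491, 529, 1564 and 776 to 2862, 4614 and 4017 (2.27, SE 0.32, adjusted p 8.2e-08), and Gar1 from 368, 312, 612 and 457 to 1183, 2038 and 1508 (1.78, SE 0.30). All later arrays exceeded all early ones for Nhp2 and Gar1.

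Of the 16 small-subunit factors, 15 rose and Utp25 was not called (0.45, SE 0.28, adjusted p 0.17). Utp20, a scaffold of the processome, showed the largest difference of the 16: 355, 365, 365 and 269 early against 1226, 1752 and 1762 later (2.11, SE 0.38, adjusted p 6.7e-06). All 3 members of the PeBoW complex, which is needed to mature the large-subunit rRNA, rose. Wdr12 went from 199, 188, 521 and 328 to 930, 1421 and 1142 (1.89, SE 0.29), Pes1 differed by 1.54 (SE 0.23) and Bop1 by 1.24 (SE 0.30). Among the other large-subunit and pre-rRNA factors 8 of 9 rose. Rrp1b went from 292, 224, 862 and 205 to 2275, 2004 and 2330, the largest difference of any member (2.62, SE 0.27, adjusted p 9.7e-11), and Nop16 from 124, 155, 517 and 236 to 1047, 1490 and 1317 (2.35, SE 0.36). Ftsj3, an rRNA methyltransferase, read 272, 271, 532 and 335 early and 950, 924 and 523 later, so 1 later array lay just below an early one (1.11, SE 0.34, adjusted p 0.0049).

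The member that moved the other way was Nop53, a large-subunit assembly factor that recruits the exosome to the precursor. It read 4151, 4809, 3615 and 4497 on the early control arrays and 2868, 2270 and 2761 on the later ones, with no overlap (-0.69, SE 0.16, adjusted p 2e-04). Its other 2 probe sets, with means of 1094 and 33.1, differed by -0.86 and -0.60. In the IL-27 arm Nop53 differed by -0.70. Across the 31 second probe sets of members that passed the filter, 29 had the same sign as the brightest one in the rise; the exceptions were 1 set each of Nol7 (-0.09) and Polr1a (-0.01).

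**Figure D2:**
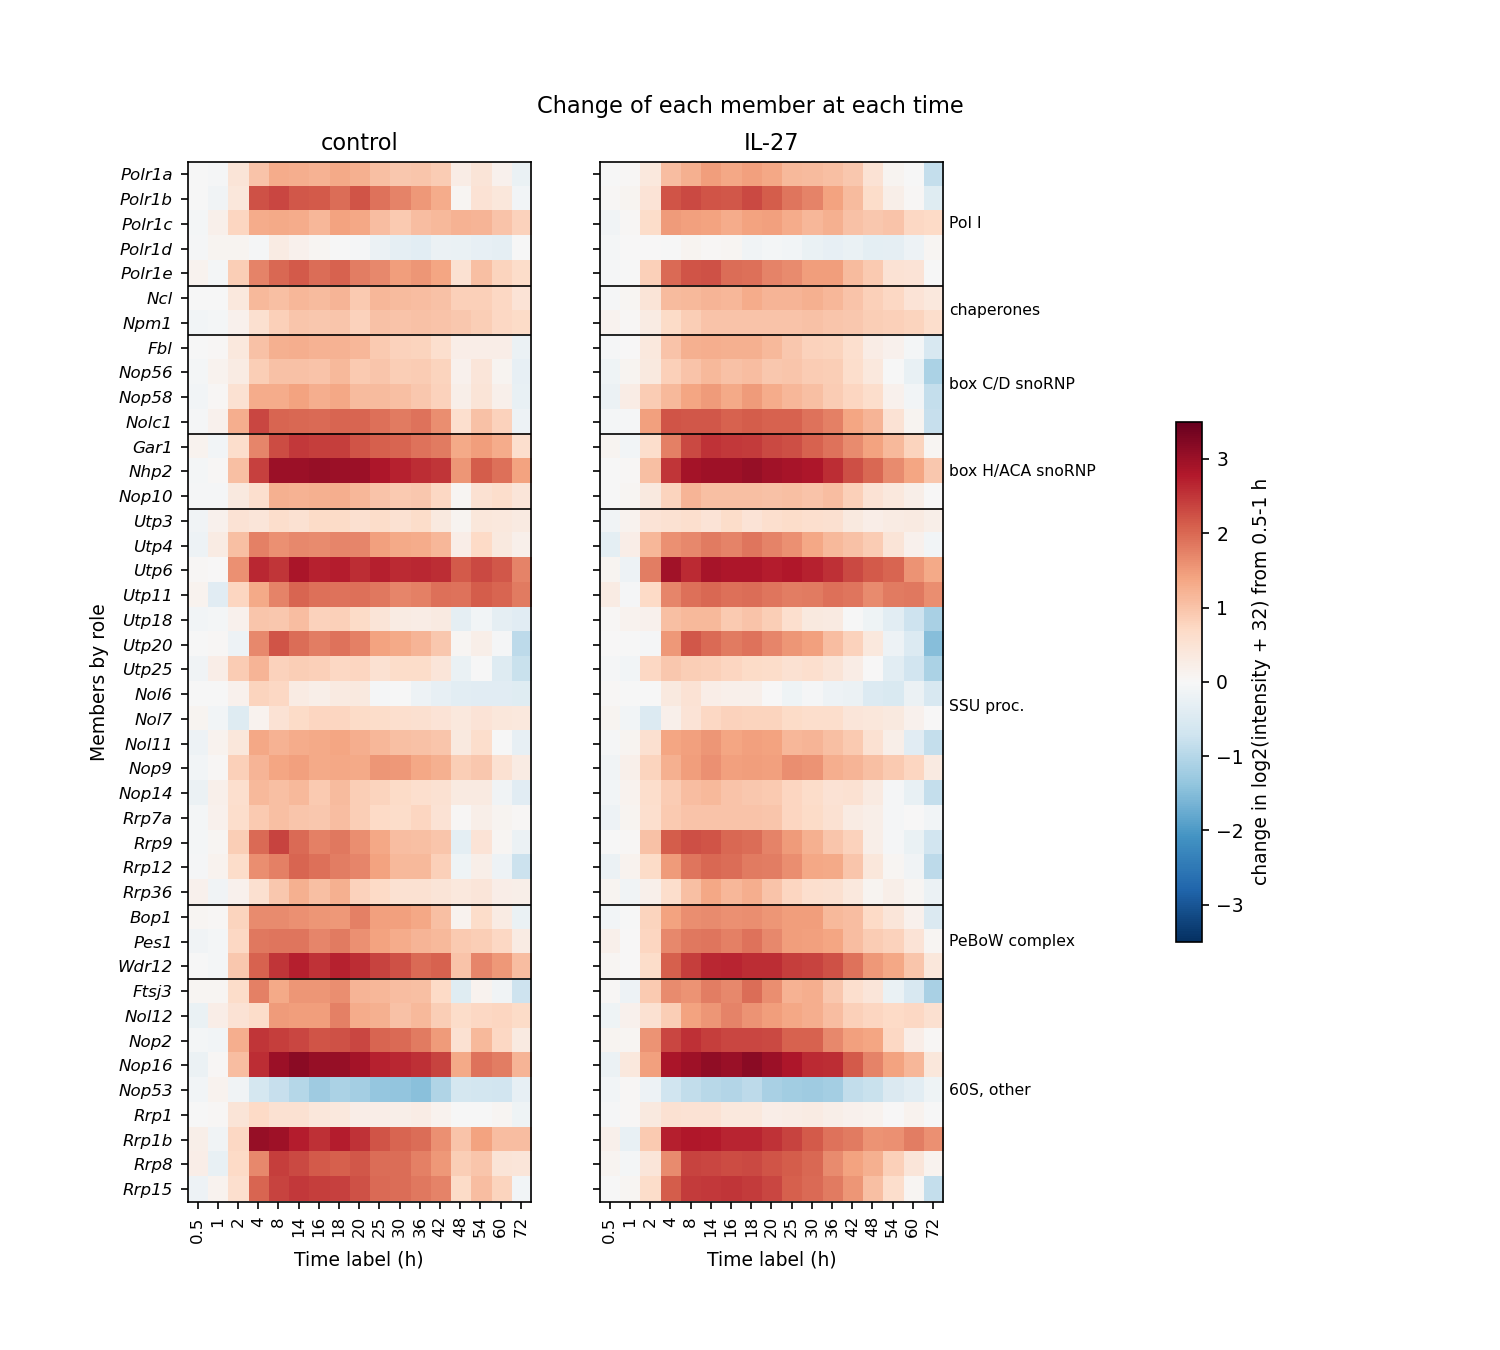
Change in log2(intensity + 32) from the mean of the 0.5 and 1 h arrays for the 42 tested members (rows, grouped by role) at each time label with arrays in both arms, in hours (columns), in control (left) and IL-27 (right) cultures; red is higher and blue lower. Nop53 is blue from 4 h on where most rows are red, and the IL-27 panel has more blue rows at 72 h.

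The increase was already under way at 2 h, where the 2 arrays of an arm differed. Arrays whose title ends in d, a suffix the labels do not explain, were higher than their partners at 2 h in 37 of 42 members in the control arm and 40 of 42 in the IL-27 arm, with medians of 0.45 and 0.48. The share over all genes was not counted, so whether the members differed more than other genes was not tested. Nolc1 read 2173 on the 2 h control array with the suffix and 1047 on the other. In the following refits the number of all genes called is not given. Without the 2 h arrays of suffix d, the count of control members called between 4-8 h and 12-20 h went from 3 to 6. Those arrays lie outside that contrast and act on it only through the shared spread and the genes kept. Whichever single array of either arm was left out, the control count in either direction from 0.5-2 h to 4-8 h was 39 to 41. Leaving out the 8 h arrays, which leaves 1 array per arm in the later group, brought it to 27 in the control arm and 26 in the IL-27 arm.

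The rise was also seen against resting cells on the other array type, where each time has 1 array and no test was made. At 0 h, Nolc1 read 621, against 5503 at 4 h, 3249 at 16 h and 2503 at 48 h in control cultures. Ncl read 3851, 12562, 12669 and 11752 and Polr1b 236, 1730, 1339 and 683 at the same times. At 4 h, 31 of 42 members were more than 2-fold above the resting array and 0 were more than 2-fold below, with a median difference of 1.81, while 17.4% of 6575 genes were more than 2-fold higher and the median of all genes was 0.07. At 16 h the count was 31 (17.9% of genes), with a median of 1.76, and at 48 h it was 24 (17.2%), with a median of 1.07. Nop53 read 5021 at rest and 4092, 3353 and 3368 afterwards, and with Nol7, at -0.06, it was the only member below the resting array at 4 h.

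**Figure D3:**
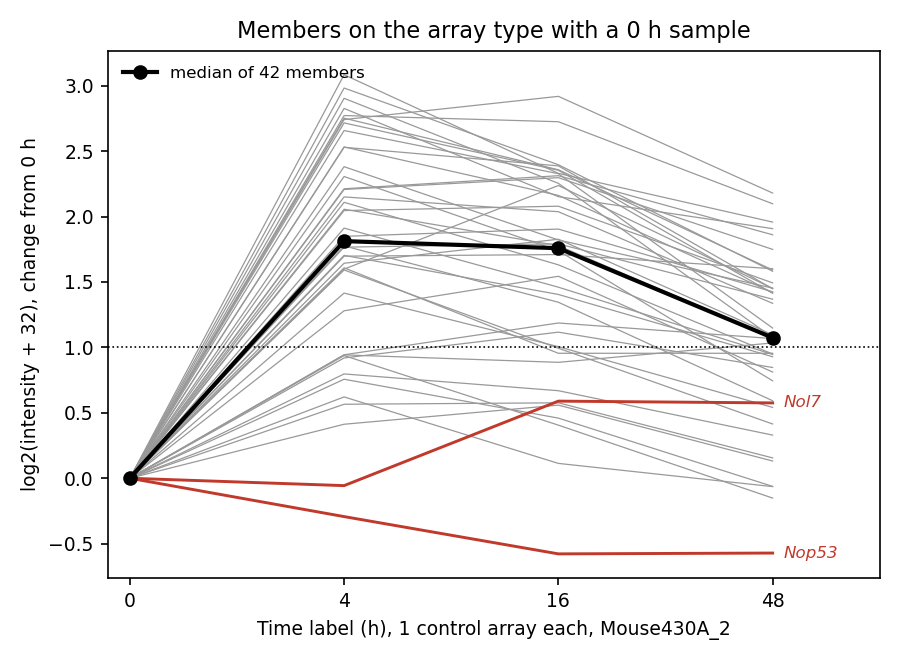
Change in log2(intensity + 32) from the 0 h array (y axis) for 42 members on the control Mouse430A_2 arrays of 4, 16 and 48 h (x axis; 1 array each), with the median in black, the 2-fold line dotted and Nop53 and Nol7 in red. Most lines peak at 4 or 16 h, and Nop53 lies below 0 at each of the 3 times.

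From 4-8 h to 12-20 h few members changed. In the control arm Nol7 was called higher (0.34, adjusted p 0.013) and Nol6 (-0.45, adjusted p 0.0011) and Nop53 (-0.42, adjusted p 0.017) lower, against 38.8% of all genes called (23.3% higher and 15.5% lower), and the median of the members was 0.01. In the IL-27 arm 3 members were called, 2 higher and 1 lower, against 32.6% of genes (17.6% higher and 15% lower). These small counts changed as arrays were left out, and the number of all genes called in the same refits is not given. Arrays outside both stages, such as those of 2 h, act on a count only through the shared spread and the genes kept. The control count was 1 without the 4 h array, 6 without the 8 h array that lacks the suffix d or without the 2 h arrays of both arms, and 8 without all 8 h arrays. The IL-27 count was 0 without the 4 h array and 1 without its 8 h array of suffix d, without its 16 h array of suffix d, or without all 16 h or all 18 h arrays of both arms.

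Times of the highest mean split the members. In the control arm 14 members were highest at 4 or 8 h, 24 between 14 and 20 h, Nop9, Npm1 and Utp11 at 25 h or later, and Nop53 by 2 h. In the IL-27 arm the counts were 15, 23, 3 (Nop9, Npm1 and Utp3) and 1 (Nop53). Rrp1b was among the early ones, at 2275 on the 4 h control array and 1848 at 14 h. Npm1 kept a flat course, between 6357 and 8294 on the control arrays from 8 to 42 h.

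**Figure D4:**
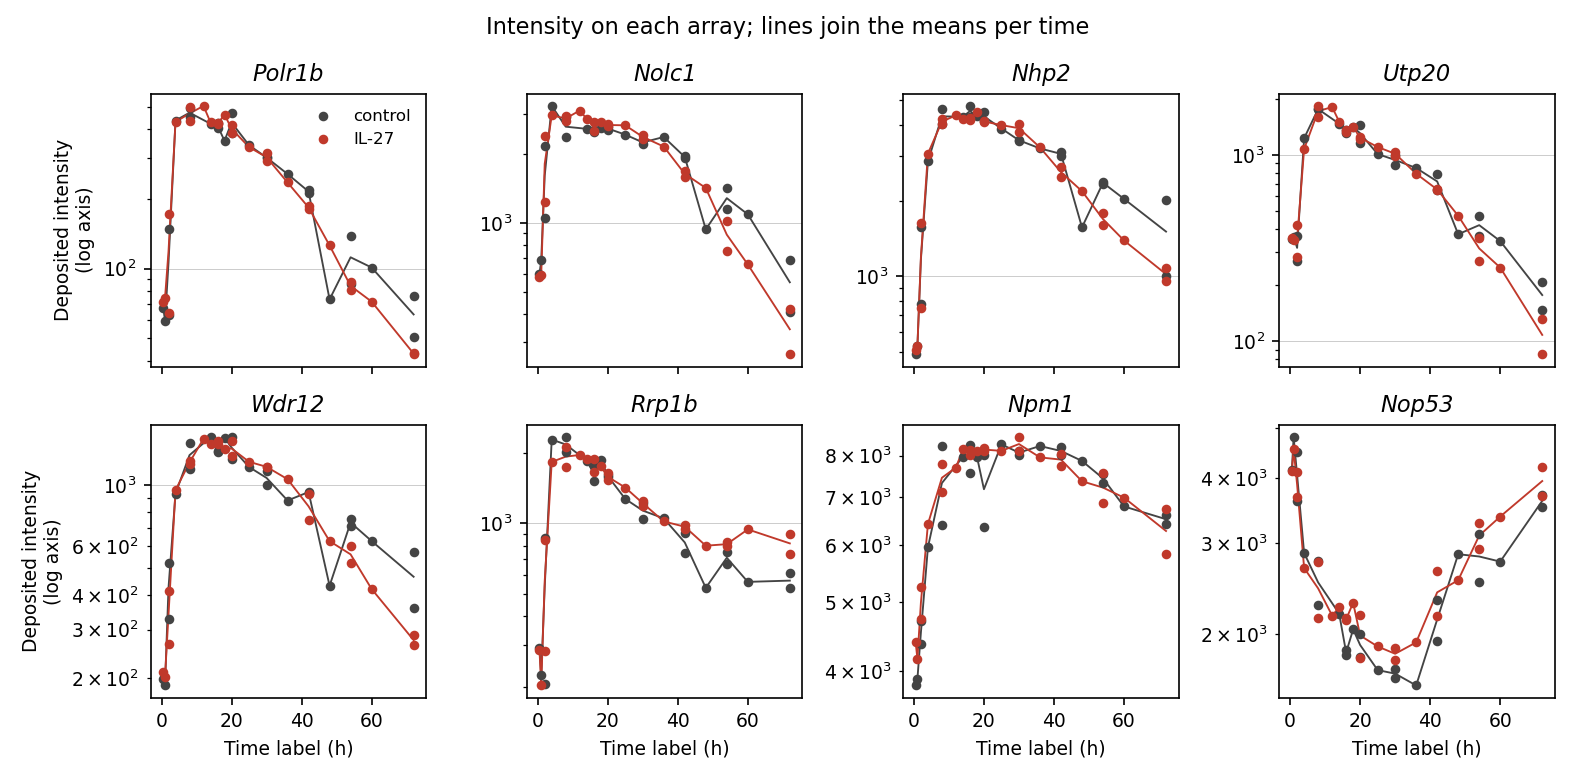
Deposited intensity on each HT_MG-430A array (y axis, log scale) against the time label in hours (x axis) for 8 members in control (grey) and IL-27 (red) cultures; each point is 1 array and lines join the means per time. Polr1b, Nolc1, Nhp2, Utp20, Wdr12 and Rrp1b rise steeply by 4 to 8 h and then decline, Npm1 stays high for longer and Nop53 has the opposite course.

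The decline began after 20 h. From 12-20 h to 25-36 h in the control arm 39 of 42 members had a negative difference, with a median of -0.30 (-0.05 over all genes), but only 4 passed the test: Rrp36 (-0.47), Utp18 (-0.48), Nol6 (-0.35) and Polr1d (-0.34), against 17.3% of all genes called, 8.23% higher and 9.05% lower. In the IL-27 arm 5 were called lower (20.5% of genes called, 9.8% called lower) and the median was -0.31. For 26 of 42 members in each arm every array of 25-36 h was below every array of 12-20 h, against 16.5% and 15% of all genes. Refits are given without the number of all genes called. Times outside the contrast act on them only through the shared spread and the genes kept. The control count of calls was 2 without the 30 h array of suffix d or the 36 h array. It was 0 without all 30 h arrays and 7 without all 72 h arrays. The IL-27 count was 2 without its 12 h or 36 h array or its 30 h array that lacks the suffix d, and 3 without its 14 h array, its 16 h array that lacks the suffix or its 30 h array that has it. Leaving out all arrays of a time gave 1 for 30 h, 2 for 16 h, 3 for 18 h or 54 h and 8 for 2 h.

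Most of the decline came after 36 h. From 25-36 h (4 arrays per arm) to 42-72 h (8 arrays per arm), 34 of 42 members fell and 1 rose in the control arm, with a median of -0.65 against 0.02 over all genes; 35.2% of all genes were called and 15.9% were called lower. In the IL-27 arm 36 fell and 1 rose, with a median of -0.88, where 47.3% of genes were called and 24.2% called lower. For 23 members every late control array was below every array of 25-36 h (10.6% of genes), and for 35 members in the IL-27 arm (16.9% of genes). The control count of calls, 35 in all, was 22 without the 25 h control array. It was 20 without the 25 h arrays of both arms and 9 without the 30 h arrays. How many of all genes were called in those refits is not given beside these counts.

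Polr1b had the steepest fall of the polymerase subunits. It read 341, 303, 300 and 256 on the 25, 30 and 36 h control arrays and from 50.7 to 219, with a median of 93.5, on the 8 later ones, with no overlap (-1.23, SE 0.24, adjusted p 0.00014). Polr1a fell by 0.65 and Polr1e by 0.61 on the log2 scale, while Polr1c (0.05) and Polr1d (0.10) were not called. Whether the shared subunits differed from the others was not tested.

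Among snoRNP proteins Nolc1 fell most, from 2436, 2206, 2298 and 2378 to a range of 408 to 1962 with a median of 1119 (-1.09, SE 0.35, adjusted p 0.014). Nhp2 differed by -0.75, Nop58 by -0.74, Gar1 by -0.71, Nop56 by -0.65 and Fbl by -0.60, all called lower. Utp20 fell from 1009, 992, 883 and 849 to between 147 and 789 (median 371.5), the largest fall of any member (-1.25, SE 0.30, adjusted p 0.0015), and Rrp12, a small-subunit export factor, by -1.17. Ftsj3 (-1.14), Nop2 (-1.07), Bop1 (-1.003), Wdr12 (-0.67) and Pes1 (-0.53) were also called lower. Ncl differed by only -0.33 (SE 0.11, adjusted p 0.02) on its brightest probe set and by -1.97 on another of its 4 sets, and the other 2 gave -0.34 and -0.32. Npm1 was not called (-0.16, adjusted p 0.1), nor were Nol7, Utp6, Utp11 and Rrp36.

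Nop53 rose in this stage. It read 1702, 1707, 1642 and 1589 on the control arrays of 25-36 h and between 1934 and 3718 later, with no overlap (0.74, SE 0.12, adjusted p 2.1e-05). In the IL-27 arm it rose by 0.69. Its other 2 probe sets, with means of 1094 and 33.1, differed by 0.82 and 0.06 in the control arm. Of the 31 second probe sets of members, 29 had the sign of the brightest one in this control contrast. The exceptions were 1 set each of Polr1d (-0.08) and Utp11 (-0.08). At 72 h, 22 of 42 members in the control arm and 19 in the IL-27 arm were still above their level at 0.5-1 h. None in the control arm lay more than 2-fold below that level, whereas Ftsj3, Nop56, Utp18, Utp20 and Utp25 did in the IL-27 arm. The matching shares over all genes were not counted, and the difference between the arms in these counts was not tested. The median change of all genes at 72 h was 0.07 in the control arm and 0.03 in the IL-27 arm.

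Marker genes of other cell types and states also moved over the course, and their part in the members' changes was not tested. From 0.5-2 h to 4-8 h, 5 of 8 CD4 T cell markers and 4 of 6 naïve T cell genes were called lower in the control arm. Of 14 genes of dividing cells 1 was called higher and 2 lower. Over all genes 29% were called higher and 28.5% lower in this contrast. The dividing-cell genes summed to 9880-11600 on the 0.5-2 h control arrays, 8355-10528 at 4-8 h, 32914-36123 at 25-36 h and 24956-30892 at 42-72 h. The B cell markers, nearly all of it Ighm, summed to 1320-3471, 757-1190, 1922-2190 and 540-1661 at the same stages, while Cd79a, Ms4a1 and Pax5 averaged 13.8, 21.4 and 9.84 over all arrays. The myeloid list, mostly Cst3, summed to 398-454 at 25-36 h and 492-1719 at 42-72 h in the control arm. Of its 10 genes 5 passed the filter: besides Cst3, Cd68 was above the array median on 13 of 51 arrays, Lyz2 and Mpeg1 on 11 and Fcer1g on 9. Csf1r was above it on 2 and Cd14, Itgam, Itgax and Adgre1 on 0.

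No member was called different with IL-27 in the first 20 h. Compared with control arrays of the same times, 0 of 42 members were called early (0.5 to 4 h). Limma called 3.32% of genes there, 2.28% higher and 1.04% lower. In the middle window (8 to 20 h) 0 members were called, against 8.13% of genes, 3.85% higher and 4.28% lower. The median IL-27 minus control difference was 0.01 early and 0.05 in the middle window. In the late window (25 to 72 h, 12 arrays per arm) 4 members were called, against 23.6% of all genes (10.8% higher and 12.8% lower). Nop56 (-0.24, SE 0.08, adjusted p 0.023), Polr1e (-0.24, SE 0.09, adjusted p 0.041) and Utp18 (-0.22, SE 0.07, adjusted p 0.031) were lower, and Nop53 was higher (0.14, SE 0.05, adjusted p 0.043). The difference between the late and early effects was called for 0 members (10.2% of genes, 5.23% higher and 5% lower). These calls change when each time and suffix is a replicate block, a fit added after the data were seen: 14 members were then called late, with 2299 of 7146 genes, and 4 for late minus early, with 1262 genes.

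The late count changed when single arrays or times were left out. The number of all genes called in the same refits is not given beside it, and whether the members moved apart from other genes was not tested. Arrays before 25 h do not enter the late difference, so they move the count only through the shared spread and the genes kept. The late count was 11 without either 48 h array and 8 without the 30 h arrays. It was 7 without the 2 h control array that lacks the suffix d and 10 without all 2 h arrays. It was 2 without the 42 h control array that lacks the suffix d, without either 54 h IL-27 array, without the 42 h arrays or without the 16 h arrays, 1 without either 60 h array, without both, or either 72 h control array, and 0 without the 54 h control array that lacks the suffix d, without the 72 h IL-27 array of suffix d, or without all 54 h or all 72 h arrays.

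The sign of the difference changed with time within the late window. At 25 and 30 h, 34 and 38 of 42 members were higher with IL-27, with medians of 0.06 and 0.07, when 47.2% and 45.7% of all genes were lower. At 42 h 32 of 42 were lower (57.9% of genes), at 54 h 39 (51.3%), at 60 h 34 (54.2%) and at 72 h 37 (56.1%), with medians of -0.07, -0.26, -0.26 and -0.34. The 48 h pair went the other way, with 11 members lower (50.6% of genes) and a median of 0.22; the members' median on the 48 h control array was 0.33 above the 0.5-1 h level, below both 42 h (0.97) and 54 h (0.58). On the Mouse430A_2 arrays of 48 h, 38 of 42 members were lower with IL-27 (54.8% of genes) and the median was -0.33. At 4 h on that array type 32 members were lower, near the 72.6% of all genes, and at 16 h 17 were (55.1%). Over its 3 pairs, 0 members and 0 of 6478 genes were called by limma, with 1 member and 496 genes at an unadjusted p under 0.05.

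**Figure D5:**
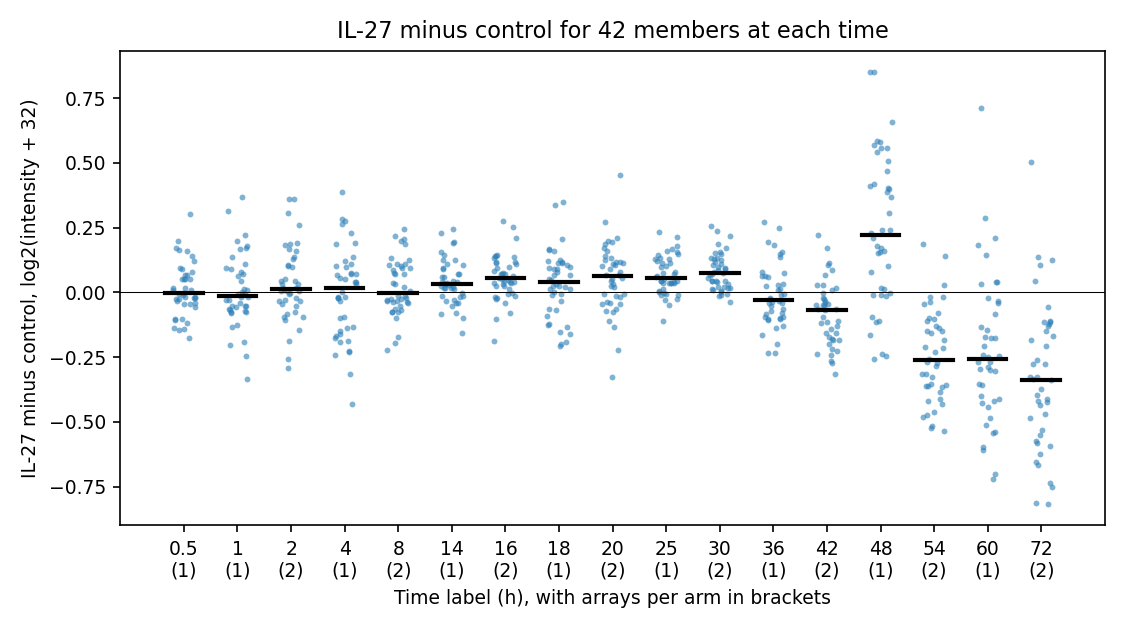
IL-27 minus control difference in log2(intensity + 32) (y axis) for each of the 42 members at each time label in hours (x axis, with the number of arrays per arm in brackets) on the HT_MG-430A arrays; bars are medians. Medians lie between -0.07 and 0.07 up to 42 h, at 0.22 at 48 h and at -0.26, -0.26 and -0.34 at 54, 60 and 72 h.

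The late window was then split into 25-36 h and 42-72 h, a split made after these signs were seen. At 25-36 h 0 members were called (4.69% of genes, 2.17% higher and 2.52% lower). At 42-72 h 16 were called lower with IL-27 and 0 higher. Of all genes 29.5% were called at 42-72 h with 17.1% lower and 12.5% higher. The median of the members was -0.17 (-0.02 over all genes), and 36 of 42 were negative. The change of the effect between the stages was called for 0 members (2.46% of genes, 1.22% higher and 1.25% lower). The count at 42-72 h was 25, of which 24 were lower, without the 48 h arrays or without either one of them; it was 7 without the 72 h control array of suffix d, 5 without the 54 h arrays and 3 without the 72 h arrays. Without the 48 h arrays the change between stages was called for 2 members. The number of all genes called in these leave-out fits is not given beside the counts. With time and suffix as a replicate block 25 members were called at 42-72 h, with 2854 of 7146 genes, and 5 for the change between stages, with 684 genes. With the spread estimated from times with duplicated arrays alone, the count was 3 at 42-72 h and 0 over the late window.

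Of the 16 members called at 42-72 h, 7 were small-subunit factors and 3 were counted with the C/D class (Fbl, Nop56 and Nolc1). Nolc1 is a chaperone of both snoRNP classes, so these counts do not compare the classes. The others were 2 polymerase subunits (Polr1a and Polr1e), 2 other large-subunit factors (Nop16 and Rrp15), 1 H/ACA protein (Gar1) and 1 PeBoW member (Wdr12). Nop56 read from 1846 to 4600 (median 3045) on the 8 control arrays and from 959.5 to 4023 (median 2593) on the 8 IL-27 arrays, and the ranges overlapped (-0.36, SE 0.09, adjusted p 0.0032). At 72 h it read 1846 and 2396 in control cultures and 960 and 1452 with IL-27. Utp18 ranged from 410 to 786 (median 525) in control and from 220 to 616 (median 467) with IL-27 (-0.36, SE 0.08, adjusted p 0.0012). It kept its call in each of 82 alternative fits. Nop16 (-0.40, adjusted p 0.016), Rrp15 (-0.39, adjusted p 0.01), Nolc1 (-0.36, adjusted p 0.039), Polr1e (-0.35, adjusted p 0.0088), Utp6 (-0.32, adjusted p 0.028) and Gar1 (-0.31, adjusted p 0.0097) followed. Polr1b (-0.18), Ncl (-0.10), Npm1 (-0.04) and Nop53 (0.12) were not called. Rrp1b had the highest positive value and was not called either (0.39, adjusted p 0.067); it read 668 and 754 on the 54 h control arrays and 561 at 60 h, against 830, 795 and 940 with IL-27.

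In the same 42-72 h arrays the dividing-cell genes summed to 24956-30892 in control and 17670-30806 with IL-27, with 2 of 14 called lower. Over all genes 17.1% were called lower and 12.5% higher. Of 8 CD4 T cell markers 4 were called higher (Cd3d, Cd3e, Cd28 and Cd5) and Cd4 itself lower (-0.28). Cd8b1 (-0.65), Car2 (-0.60) and Cst3 (-0.62) were called lower and the NK gene Klrd1 higher (0.95), while Cd8a and Ncr1 were above the array median on 0 arrays. The NK list summed to 67-521 with IL-27 and 62-101 in control. The part of these marker genes in the members' differences was not tested.

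Genes of the other pathway lists were counted in the same contrasts. From 0.5-2 h to 4-8 h in the control arm, 25 of 35 other small-subunit factors were called higher and 3 lower, where 29% of all genes were called higher and 28.5% lower, with Tbl3 (2.10), Aatf (2.07) and Dimt1 (1.38) up and Riok1 (-0.56), Riok3 (-0.49) and Ngdn (-0.32) down. Of 40 other large-subunit assembly and export factors 33 were called higher and 2 lower; those with the smallest adjusted p were Spata5 (1.45), Tma16 (2.59) and Noc2l (1.77), with Zfp622 (-0.47) and Nsa2 (-0.38) lower. The exosome, which trims pre-rRNA, had 10 of 12 genes higher and 0 lower, Exosc5 (1.28), Exosc9 (1.24) and Exosc4 (1.45) among them, and the snoRNP assembly list 6 of 9 higher and 0 lower, with Ruvbl2 (2.19), Ruvbl1 (2.11) and Naf1 (1.99). From 25-36 h to 42-72 h, where 15.9% of all genes were called lower and 19.2% higher, 28 of the 35 small-subunit factors were called lower and 2 higher, and 27 of the 40 large-subunit factors lower and 2 higher. The exosome list had 8 of 12 lower and the snoRNP assembly list 4 of 9. Ruvbl1, Ruvbl2 and Naf1 were not called in this contrast (-0.51, -0.22 and -0.59), and of the 4 called lower Znhit3 and Coil had not been called higher in the first.

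Of 19 regulators of the ribosomal RNA genes 7 were called higher and 5 lower in the first contrast, near the shares over all genes (29% and 28.5%). Myc read 467, 652, 5432 and 2473 on the 0.5 h, 1 h and both 2 h control arrays and 6180, 4380 and 3966 at 4 and 8 h (1.70, SE 0.44, adjusted p 0.001), the 2 h array of suffix d lying among the later ones. It then read from 1668 to 2507 on the control arrays of 42-72 h. Rrn3, which brings polymerase I to its promoter, was called higher (1.02, SE 0.17, adjusted p 3e-06), as was Mybbp1a (1.53). Ubtf, the factor that opens the ribosomal RNA genes, had a difference of 0.51 (SE 0.31, adjusted p 0.15). Mxd4 (-2.97) and Mxi1 (-2.39), which share MYC's partner MAX and repress, were called lower, and both were called higher from 25-36 h to 42-72 h (1.07 and 1.78). At 42-72 h with IL-27, Mybbp1a (-0.34), Rrn3 (-0.27) and Kdm2b (-0.46) were called lower and Mnt (0.27) and Mxi1 (0.30) higher, and Myc was not called (-0.31, SE 0.12, adjusted p 0.056).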

How the data were processed

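Per the submitters' processing notes, the authors made the deposited intensity values with MAS5 (version not given); values are per probe set on a linear scale. Its settings were not given in the sources used. Genes were taken from the platform annotation: of 22626 probe sets, 20173 name 1 gene, 942 several and 1511 none, and the brightest single-gene set stood for its gene. The test was limma's (version 3.58.1, R 4.3.3) on log2(intensity + 32) values (eBayes with intensity trend, Benjamini-Hochberg over all kept genes, threshold 0.05). A gene was kept if it was above the median of its own array on at least 5 arrays (3 on Mouse430A_2). One model held a term for each time and an IL-27 effect for each window (30 residual degrees of freedom); the course model held arm by stage (41), so differences between times within a stage count as spread. A fold on this scale understates the change of dim genes. The array number limits the precision.

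The members and gene lists were chosen with earlier results of these data known. Values are given for members named in full by the rule, all Polr1 subunits, the called members with the largest differences (8 each way per IL-27 window, 5 per control contrast), the 3 highest and lowest by level, and Myc, Ubtf, Rrn3 and up to 3 called genes each way per pathway list; members outside these were added after their values were seen. Scripts were tested on simulated data. Alternatives covered the pseudocount, filter, probe set rule, normalization, suffix, spread, and each array and time left out. Arrays titled GFPP and GFPN were not used here.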

Additional observations from a re-analysis of the deposited data

Results flagged for a closer look

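Of the members, none had an IL-27 effect that differed between the late (25 to 72 h) and the early (0.5 to 4 h) window by limma's test with Benjamini-Hochberg adjustment, but 5 genes of the other pathway lists did. The late minus early difference was -0.997 for Noc4l (adjusted p 0.0012), a partner of Nop14 in small-subunit assembly, though counted here in the list of large-subunit factors, whose mean was 1160 with IL-27 and 710 in control early. It was -0.60 for Rpf2 (adjusted p 0.041), -0.56 for Myc (adjusted p 0.049), -0.54 for Znhit3 (adjusted p 0.013) and -0.39 for Ddx24 (adjusted p 0.035). In each of the 5 the IL-27 minus control difference was above 0 early and below 0 late.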

How the results depend on the processing

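The 97 calls of members chosen by the naming rule, not all calls of members, were tried under 81 or 82 settings each. Of the results, 7594 kept direction and call, 356 lost the call and 0 reversed. Counts of called members moved as follows, and the cause was not tested. The number of all genes called under each setting is not given beside them. Between 4-8 h and 12-20 h with IL-27 the count was 3 as reported and 1 with a pseudocount of 1, with no filter, with quantile normalization or without the arrays of suffix d. With no filter it was 2 for the late IL-27 effect and 3 for 12-20 h to 25-36 h with IL-27. With the 12 h control array it was 1 for the middle IL-27 effect, 2 for the late effect, 2 for 12-20 h to 25-36 h with IL-27 and 9 at 42-72 h; without the 12 h IL-27 array it was 2 for 12-20 h to 25-36 h with IL-27. Without the arrays of suffix d it was 2 for late minus early, 1 for the effect at 25-36 h and 4 for the change of the effect between 25-36 h and 42-72 h. With the spread from duplicated times only it was 0 late, 3 at 42-72 h, 10 (control) and 7 (IL-27) from 4-8 h to 12-20 h, and 19 (control) and 22 (IL-27) from 12-20 h to 25-36 h. The shorter motif CANNTG was in 24 of the 34 promoters with a window.

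The suffix d was checked for pairing: deviations of suffix d arrays correlated across arms at 0.76, 0.63, 0.55, 0.63, -0.01, 0.51, 0.57 and 0.23 at 2, 8, 16, 20, 30, 42, 54 and 72 h. Arrays of the same suffix thus moved together at most of these times, weakly at 72 h and not at 30 h. The main fits do not use this pairing. With suffix d as a covariate common to all times no count moved by over 1.5 times. The members' median deviation of suffix d arrays in the control arm was 0.45 at 2 h and -0.26 at 8 h. A common term cannot take up a deviation that changes sign, so this fit does not settle whether the suffix matters. The following were chosen after seeing the data. With time and suffix as a replicate block 14 members were called late (3 higher, 11 lower; 2299 of 7146 genes), 4 for late minus early (1262 genes), 1 at 25-36 h (579 genes), 25 at 42-72 h (2 higher, 23 lower; 2854 genes) and 5 for the change between those stages (684 genes). Without the 48 h arrays the counts were 25 at 42-72 h and 2 for the change. Without the 2 h arrays of suffix d they were 6 for control 4-8 h to 12-20 h and 8 for IL-27 12-20 h to 25-36 h.

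Leaving out each array or time in turn gave 0 to 0 members for the early and middle IL-27 effects and on Mouse430A_2, 0 to 11 late, 0 to 3 for late minus early, 0 to 0 at 25-36 h, 3 to 25 at 42-72 h and 0 to 2 for the change between them. The control course gave 27 to 41, 1 to 8, 0 to 7 and 9 to 36 over its 4 contrasts in order of time, and the IL-27 course 26 to 41, 0 to 4, 1 to 8 and 34 to 40.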
